A study of Mus musculus with 21 samples.

Results

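The MYC network was followed through MEK inhibitor resistance in murine pancreatic ductal adenocarcinoma (PDAC) cells. It was taken as 10 genes found by symbol among the 34478 genes of the normalized-count table, and all 10 were found and passed the filter on low values that left 19300 genes for testing. RNA-seq had been done on 6 primary cell lines (#3, #4, #6, #7, #9 and #10), each grown from a tumour of genetically engineered mice that carried Ptf1awt/Cre and Trp53loxP/loxP, so that every group had Trp53 deleted by a Cre under Ptf1a, a pancreatic gene. Parental cells (6 samples) had never met the inhibitor, and resistant cells (6 samples) were kept in trametinib, a MEK inhibitor, at 100 times the IC50 of their line. P5 cells (3 samples, lines #3, #7 and #9) and P12 cells (6 samples) came from resistant cells passaged in drug-free medium. Each line gave 1 sample per state, so the line is the replicate. Resistance was built up over months of culture, and drug exposure and time in culture cannot be told apart.

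MYC, MYCN and MYCL are transcription factors that bind DNA only as a pair with MAX, most strongly at the E-box CACGTG, and drive ribosome production, metabolism and proliferation. The proteins encoded by Mxd1, Mxd3, Mxd4, Mxi1 and Mnt compete with MYC for MAX at the same sites and recruit SIN3 and histone deacetylases, so that the balance between both sides sets the output. MLX is a relative of MAX that pairs with MondoA and ChREBP and also with MXD1, MXD4 and MNT. ERK, the kinase downstream of MEK, also stabilises the MYC protein, which transcript counts do not show.

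Read depth behind these values was 24.0 M to 42.7 M reads per sample, estimated from the spacing of low values, so that 3 reads corresponded to 2.31 to 4.07 normalized counts. All 7 genes of an ERK output list fell in resistant against parental cells and rose in P12 and in P5 against resistant cells. Each change had an adjusted p below 0.05 by limma without a block on cell line. Of all genes, 15.6%, 6.22% and 2.07% passed in the same order. The list, like the others, was chosen with earlier results of these data known. In bulk RNA, fewer cells of a type and less RNA per cell cannot be told apart. The sum of 7 ductal and epithelial markers was 18363 to 283578 in parental, 1693 to 210019 in resistant, 3298 to 238329 in P5 and 3930 to 209595 in P12 cells, and Epcam was at or near 0 in all samples. Line #9 held the lowest epithelial sum in each state, with Krt8 at 140 to 546 across its states against 8832 or more in the other lines. The sum of 6 fibroblast markers was 105 to 21999 in parental, 1881 to 560350 in resistant, 317 to 74831 in P5 and 218 to 147755 in P12 cells, and the part of these shifts in the results below was not tested. Leukocyte marker sums stayed between 131 and 413, with Cd3e below 10 throughout and Cd68 at 118 to 404. Endothelial sums were 15.8 to 2753, highest in the resistant state in every line except #7, where the sum was lowest. Acinar and islet sums were 0 to 931, with Ptf1a and Ins2 below 10 and Cela1 at 0 to 931.

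A comparison of levels between genes used normalized counts per kilobase of the longest protein-coding transcript (GENCODE M21, GRCm38). By the parental median, the order was Myc 3509, Max 872, Mlx 617, Mnt 365, Mxd3 227, Mxd4 184, Mxi1 160, Mycn 96.2, Mxd1 96.0 and Mycl 41.8. Only Myc stood clear of its neighbour, at 2865 to 6467 per kilobase against 633 to 1012 for Max, while the ranges of every later pair of neighbours overlapped. In resistant cells the median of Mxd4 per kilobase was 622 and that of Myc 1533. The 2 annotated coding transcripts of Mxd4 are 1160 and 3872 bases long, so its level per kilobase depends on which is used.

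One member, Mxd4, passed the test between resistant and parental cells, and its promoter is shown with the E-box in capitals because that hexamer is the site the network's own proteins bind. The RefSeq table (GRCm38.p6) matched 9 of the 10 members, with 11 promoters of 300 bases (250 before and 50 after the start), and Myc had no entry. CACGTG, which reads the same on both strands, was found in 4 of these 11 promoters, those of Mxd4, Max, Mlx and Mnt, and in 7.15% of all 32851 promoters in the table. The sequence of Mxd4 covers chr5:34187661-34187960 on the minus strand, and its E-box begins 219 bases before the start of the gene.
Mxd4: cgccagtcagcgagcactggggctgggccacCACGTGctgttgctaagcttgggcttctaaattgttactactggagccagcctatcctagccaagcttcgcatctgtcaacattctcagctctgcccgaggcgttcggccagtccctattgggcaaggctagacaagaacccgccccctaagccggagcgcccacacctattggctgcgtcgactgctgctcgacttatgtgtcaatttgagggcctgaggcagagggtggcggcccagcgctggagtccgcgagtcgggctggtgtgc
The 60 bases around the E-box of the other 3 promoters are given for comparison, with the same capitals. They lie at chr12:76962219-76962278 (minus strand) for Max, chr11:101087223-101087282 (plus strand) for Mlx and chr11:74830774-74830833 (plus strand) for Mnt, and the E-box begins 3, 40 and 123 bases before the start, respectively.
Max: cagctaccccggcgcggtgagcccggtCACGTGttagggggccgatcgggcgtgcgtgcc
Mlx: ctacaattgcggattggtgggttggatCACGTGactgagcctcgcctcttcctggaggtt
Mnt: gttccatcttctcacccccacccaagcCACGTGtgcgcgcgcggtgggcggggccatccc
A match is a description of these letters, and binding was not measured here.

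Between resistant and parental cells, Mxd4 rose 3.44-fold, Myc was lower in 5 of 6 lines without passing the test across all samples, and the other members stayed below the threshold. Limma was run on log2 values without a block on cell line, and limma below means this fit unless another is named. At an adjusted p below 0.05, 1 of 10 members passed, against 15.6% of all genes tested. Under the stricter thresholds of the study (adjusted p below 0.01, log2 fold change past 1 in size), no member passed by limma against 5.3% of all genes, and 3 of 10 members (Myc, Mxd4 and Mlx) had an unadjusted p below 0.05, about the share of all genes (29.2%). The paper gives those thresholds, with DESeq2, for parental or resistant cells against the union of the other states. Here they were applied to pairs of states. When the cell line was fitted as a block, 2 members passed, Mxd4 and Myc, against 26.0% of all genes.

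**Figure D1:**
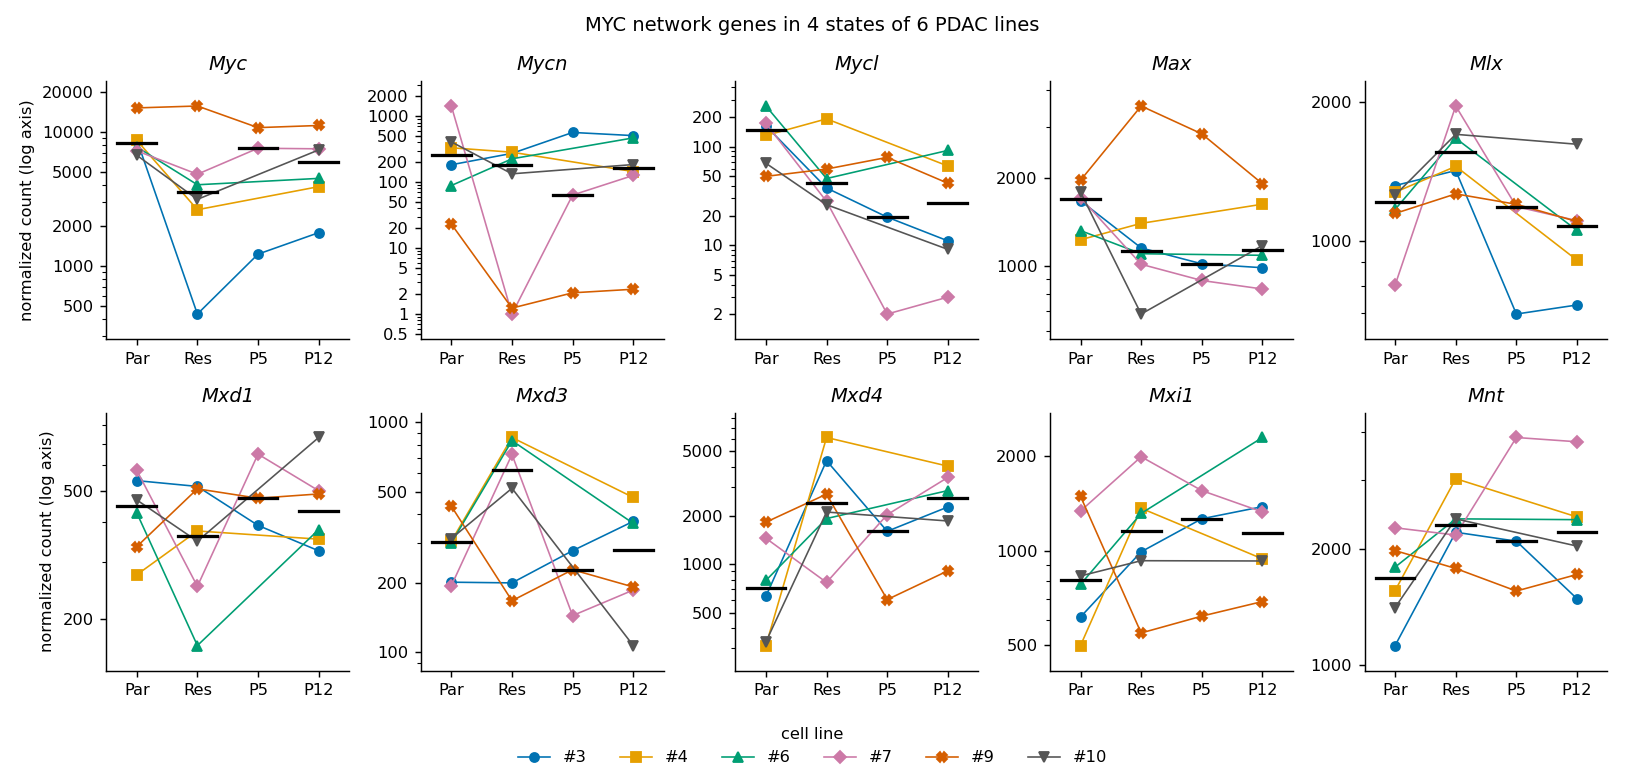
Normalized counts (log axis, a separate scale for each gene) of the 10 members in parental (Par), resistant (Res), P5 and P12 cells. Each line and symbol is a cell line, P5 exists only for lines #3, #7 and #9, and black bars are medians. Resistant line #3 had the lowest Myc (437, from 8742), line #9 was highest for Myc in every state, and Mxd4 was higher in resistant than parental cells in every line except #7.

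Myc, the general member of the family in proliferating cells (chr15:61985391-61990374, plus strand), held 8742, 8668, 7739, 7230, 15120 and 6699 normalized counts in the parental cells of lines #3, #4, #6, #7, #9 and #10. In the resistant cells of the same lines it held 437, 2626, 4033, 4835, 15626 and 3138. It was lower in every line except #9, by 20.02-fold in line #3, and the groups overlapped only through line #9. The log2 fold change was -1.43 (SE 0.66, adjusted p = 0.150). In the fit that blocks on cell line the SE was 0.40 and the adjusted p 0.0154, and with the block and only these 2 states in the fit the adjusted p was 0.0992. Without line #9 the change was -1.73 (adjusted p = 0.0622), and without line #3 it was -0.86 (adjusted p = 0.222). The spread between lines was wider in resistant cells, with the highest line 35.8 times the lowest, than in parental cells, where that ratio was 2.26.

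After withdrawal, Myc stood at 1224, 7557 and 10772 in the P5 cells of lines #3, #7 and #9. In the P12 cells of lines #3, #4, #6, #7, #9 and #10 it stood at 1769, 3903, 4501, 7483, 11177 and 7343. In P12 cells lines #7 and #10 were slightly above their parental value, lines #3, #4 and #6 were between their resistant and parental values, and line #9 was below both. P12 cells differed from resistant cells by 0.69 on the log2 scale (SE 0.66, adjusted p = 0.628) and from parental cells by -0.75 (SE 0.66, adjusted p = 0.612), with all ranges overlapping.

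Mycn, the family member best known from neural and early embryonic tissue, was at 183, 332, 88.6, 1426, 23.1 and 407 in the parental cells of lines #3, #4, #6, #7, #9 and #10. In resistant cells it was at 272, 284, 225, 0.994, 1.22 and 133, and in P12 cells at 507, 144, 468, 126, 2.37 and 184. Line #7, the highest of the parental lines, was at or under 3 reads on the drug and had 63.5 in P5 and 126 in P12 cells. Line #9 was at or under 3 reads in every state after the parental one, with 2.09 in P5 cells, while line #3 had 566 in P5 cells. The log2 fold change of resistant against parental cells was -2.14 with an SE of 1.58 (adjusted p = 0.399), and without line #7 it was -0.67. The lines differed in direction, 2 higher and 4 lower, and the groups overlapped.

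Mycl, the member first found in small cell lung cancer, was at 163, 130, 258, 172, 50.01 and 67.9 in the parental cells of lines #3, #4, #6, #7, #9 and #10. It was at 38.1, 191, 47.6, 27.8, 59.3 and 25.8 in resistant cells and at 11.1, 63.7, 91.6, 2.99, 42.6 and 9.10 in P12 cells. In P12 cells every line was below its own parental value, although the group ranges overlapped, and line #7 was at or under 3 reads. In P5 cells lines #3, #7 and #9 held 19.3, 2.01 and 77.9, so that only line #9 was above its parental value. The P12 against parental log2 fold change was -2.45 (SE 0.81, adjusted p = 0.156, lower in 6 of 6 lines), and Mycl passed in the fit that blocks on cell line (adjusted p = 0.0429). With the block and only these 2 states in the fit, the adjusted p was 0.1003. Resistant against parental cells gave -1.27 (SE 0.81, adjusted p = 0.318).

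Max, the obligate partner of the MYC proteins and a partner of the antagonists (chr12:76937269-76962201, minus strand), was at 1673, 1230, 1322, 1715, 1965 and 1791 in the parental cells of lines #3, #4, #6, #7, #9 and #10. In resistant cells it was at 1153, 1400, 1102, 1014, 3529 and 685. It was lower in 4 lines and higher in lines #4 and #9, so the ranges overlapped. The log2 fold change was -0.32 (95% interval -1.02 to 0.38, adjusted p = 0.577). In P12 cells Max spanned 834 to 1912 with a median of 1132, against a parental median of 1694 (log2 fold change -0.39, adjusted p = 0.607). P5 cells of lines #3, #7 and #9 held 1018, 892 and 2833, with line #9 again the highest.

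Mxd4, an antagonist associated with quiescent and differentiating cells (chr5:34173883-34187720, minus strand), was at 631, 312, 792, 1446, 1819 and 329 in the parental cells of lines #3, #4, #6, #7, #9 and #10. In resistant cells it was at 4379, 6098, 1916, 769, 2716 and 2103. Lines #3, #4, #6, #9 and #10 were higher and line #7 was lower, and the groups overlapped only through resistant line #7. The log2 fold change was 1.78 (SE 0.52, adjusted p = 0.0266, and 0.0304 with the block). The test was lost without line #3 (adjusted p = 0.128), #4 (0.140), #6 (0.0723) or #10 (0.0965), and with only these 2 states in a blocked fit (0.0916). It held without line #7 (2.32, adjusted p = 0.00719) or line #9 (2.02, adjusted p = 0.0130).

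After withdrawal Mxd4 was above its parental value in 5 of 6 P12 lines, a difference that did not pass the test. P12 cells of lines #3, #4, #6, #7, #9 and #10 held 2261, 4050, 2857, 3449, 908 and 1851 normalized counts, and P5 cells of lines #3, #7 and #9 held 1597, 2024 and 602. Every P12 line except #9 was above its parental value, and line #7, which was lower on the drug, was 2.16 higher on the log2 scale than in its resistant cells. P12 and resistant cells differed by -0.09 (SE 0.52, 95% interval -1.19 to 1.00, adjusted p = 0.951). P12 and parental cells differed by 1.69 (SE 0.52, higher in 5 of 6 lines), with an adjusted p of 0.130, of 0.0885 with the block and of 0.0322 without line #9 (2.22).

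Within each line, the log2 change of Mxd4 minus that of Myc between resistant and parental cells was 7.11 in line #3, 6.01 in #4, 2.21 in #6, -0.33 in #7, 0.53 in #9 and 3.77 in #10. Lines #3, #4, #6 and #10 thus combined less Myc with more Mxd4 transcript. In lines #7 and #9 both genes moved by under 1 log2 unit. Mxd4 was taken because it passed the test in this comparison. The mean change of Mxd1, Mxd3, Mxd4, Mxi1 and Mnt minus that of Myc was 5.20, 3.45, 1.45 and 1.87 in lines #3, #4, #6 and #10. It was 0.64 in #7 and -0.41 in #9, opposite in sign there to the values for Mxd4.

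Mnt, the most widely expressed antagonist (chr11:74830920-74845725, plus strand), was at 1123, 1557, 1791, 2264, 1977 and 1408 in the parental cells of lines #3, #4, #6, #7, #9 and #10. In resistant cells it was at 2204, 3033, 2387, 2168, 1777 and 2387. It was higher in lines #3, #4, #6 and #10, the same lines in which Mxd4 gained most, and slightly lower in #7 and #9. The log2 fold change was 0.48 (SE 0.24, adjusted p = 0.187, and 0.0671 with the block). In P12 cells it spanned 1484 to 3778 with a median of 2203, close to the resistant median of 2296 (log2 fold change -0.07, adjusted p = 0.921). P5 cells of lines #3, #7 and #9 held 2090, 3875 and 1553, and line #7 was above every resistant sample.

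The remaining antagonists varied between lines without passing the test. Mxd3, which unlike its relatives is expressed in S phase of cycling cells, was at 202, 304, 299, 195, 432 and 313 in parental and at 201, 860, 833, 725, 168 and 517 in resistant cells of lines #3, #4, #6, #7, #9 and #10. Lines #4, #6, #7 and #10 were higher on the drug, line #9 was lower and line #3 barely differed (log2 fold change 0.70, SE 0.43, adjusted p = 0.300). P12 cells had a median of 278 (107 to 472), near the parental 302 (P12 against resistant cells -0.86, SE 0.43, adjusted p = 0.279). P5 cells of lines #3, #7 and #9 held 277, 145 and 229 (P5 against resistant cells -1.12, SE 0.53, adjusted p = 0.317). Mxd1, the classical differentiation-induced antagonist, had medians of 448 in parental, 362 in resistant, 474 in P5 and 434 in P12 cells, and ranged from 165 in resistant line #6 to 733 in P12 line #10. The groups overlapped, and resistant against parental cells gave -0.33 (SE 0.28, adjusted p = 0.476). Mxi1, an antagonist also known as a hypoxia target, had medians of 805, 1153, 1264 and 1135 in parental, resistant, P5 and P12 cells, with ranges of 497 to 1491, 545 to 1995, 617 to 1555 and 687 to 2298. It was higher in resistant cells in 5 lines and lower in line #9, which went from 1491 to 545 (log2 fold change 0.36, SE 0.35, adjusted p = 0.535).

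Mlx, the MAX relative (chr11:101087277-101092207, plus strand), was at 1317, 1274, 1170, 803, 1146 and 1256 in the parental cells of lines #3, #4, #6, #7, #9 and #10. It was at 1419, 1449, 1666, 1956, 1264 and 1699 in resistant cells and at 727, 909, 1054, 1106, 1101 and 1617 in P12 cells. It was higher in resistant than parental cells in 6 of 6 lines and lower in P12 than resistant cells in 6 of 6 lines, although the group ranges overlapped. The log2 fold changes were 0.44 (SE 0.19, adjusted p = 0.125, and 0.0900 with the block) and -0.56 (SE 0.19, adjusted p = 0.0897, and 0.0577 with the block). Without line #7, the lowest of the parental lines, they were 0.28 (adjusted p = 0.387) and -0.51 (adjusted p = 0.180) by limma. In P5 cells of lines #3, #7 and #9 it held 695, 1186 and 1200, all below the lowest resistant value of 1264, with an adjusted p of 0.176 for P5 against resistant cells. These comparisons share the resistant samples. The share of all genes that moved alike in 6 of 6 lines, or without overlap between groups, was not taken for Mlx or any other gene here. Of 2 genes that MLX drives with MondoA in response to glucose, neither Txnip (resistant against parental -0.27, adjusted p = 0.811) nor Arrdc4 (0.19, adjusted p = 0.855) passed the test in any comparison.

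**Figure D2:**
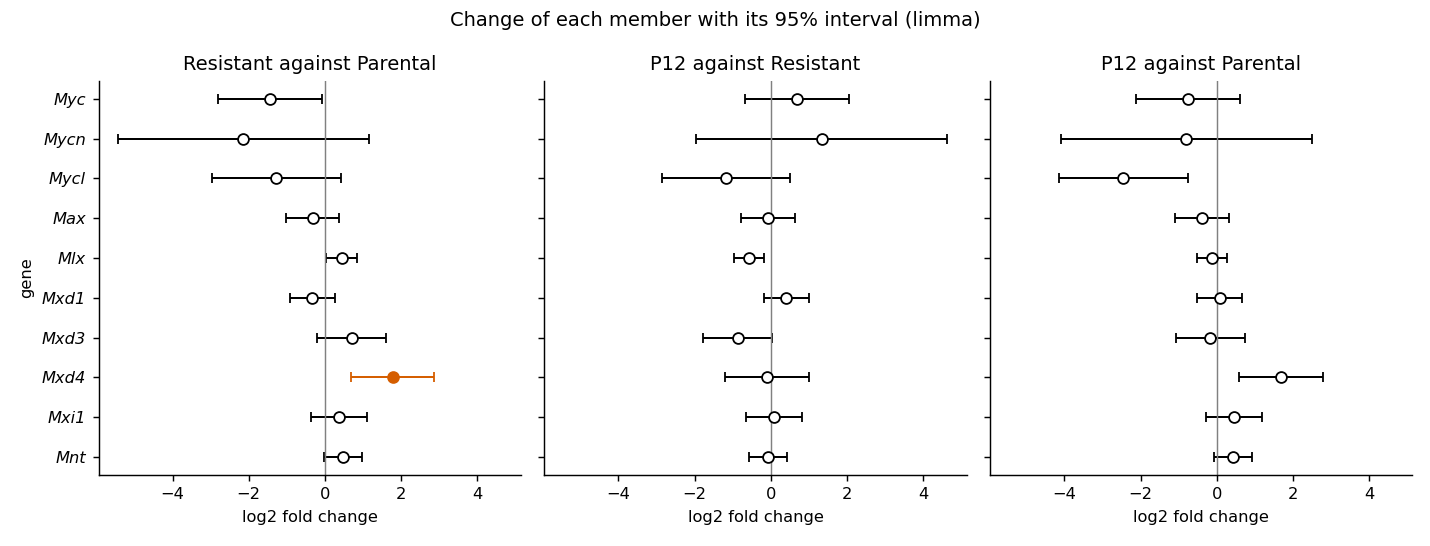
Log2 fold change of each member with its 95% interval from limma without the block on cell line (6 against 6 samples in each panel). The filled orange point, Mxd4 in resistant against parental cells (1.78), is the only one with an adjusted p below 0.05 in this fit. The interval of Mycn is the widest. With the block, Myc in resistant against parental cells (adjusted p = 0.0154) and Mycl in P12 against parental cells (0.0429) passed too.

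In the comparisons after withdrawal, no member passed limma without the block on cell line at an adjusted p below 0.05. For P12 against resistant cells the background was 6.22% of genes (2.13% under the thresholds of the study), and 1 member, Mlx, had an unadjusted p below 0.05 (19.8% of all genes). For P12 against parental cells it was 0.658% (0.114%), and 5.32% in the fit that blocks on cell line, where Mycl passed. Without the block, 2 of 10 members, Mycl and Mxd4, had an unadjusted p below 0.05, against 15.3% of all genes. For P5 against resistant cells it was 2.07% (0.378%), with Mxd3 and Mlx below an unadjusted 0.05 (15.4% of all genes), and for P5 against parental cells 0.0466% (0.0259%), with Mycl below it (10.4% of all genes). No member passed the thresholds of the study in any of these by limma. The P5 groups hold 3 lines against 6 and share 3 of them. The P5 samples of lines #7 and #9 carry a note of 12 drug-free passages beside a P5 name, and without them P5 rests on line #3 alone. In line #3 itself, Myc was 1.48 higher on the log2 scale in P5 than in resistant cells.

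Line #9 stood apart at Myc. A further 5 genes whose starts lie within 2 Mb of the start of Myc passed the filter, and they were chosen by position after the Myc values had been seen. In line #9, 4 of these 5 were above all other lines in every state. Of all genes tested, 25.9% were highest in line #9 among parental cells, 22.7% among resistant and 18.1% among P12 cells. This share was not taken for P5 cells, which hold 3 lines. Pvt1, a long noncoding RNA that starts 52.6 kb downstream, was at 7812, 23100, 5723 and 4938 in line #9, in the order parental, resistant, P5, P12. The other lines held Pvt1 at 300 to 457 in parental, 266 to 644 in resistant, 607 to 760 in P5 and 531 to 952 in P12 cells. Fam84b, a protein-coding gene 1132 kb upstream, was at 12976, 126191, 16161 and 14257 in the 4 states of line #9, in the same order. The other lines held it at 1436 to 5124 in parental, 2401 to 6527 in resistant, 1836 to 3259 in P5 and 1242 to 7546 in P12 cells. Gsdmc4, at 1927 kb downstream, was not high in line #9 (0 to 6.44 normalized counts) and was low in the other lines too (0.822 to 34.1). Gm27913 lies within Pvt1 and 9930014A18Rik next to Fam84b, so these are not 4 independent signals.

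**Figure D3:**
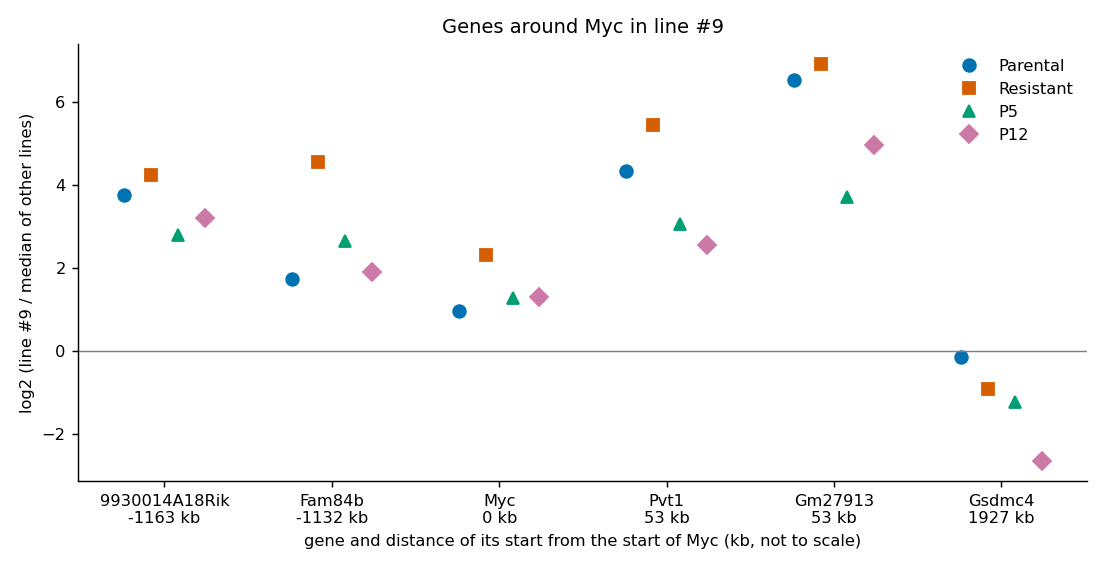
Log2 ratio of line #9 to the median of the other lines (values plus 1) for Myc and the genes around it, ordered by distance of their starts from that of Myc, in the 4 states. All points except those of Gsdmc4 lie above 0, and in resistant cells Pvt1 reached 5.46 and Myc 2.32.

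The near absence of Mycn in resistant line #7 was not seen in Ddx1 and Nbas, the nearest protein-coding genes tested. Ddx1, a helicase gene 307 kb away, was at 5707 there against 3528 to 6230 in the other resistant lines, and Nbas was at 1982 against 1261 to 2651. Both values lie within the range of the other lines, and these genes too were chosen by position after the values were seen. Fam84a, a protein-coding gene farther off within 2 Mb of Mycn, was at 1987, 15.3, 1760 and 1846 in parental, resistant, P5 and P12 cells of line #7, and was thus lowest on the drug, as Mycn was. The other lines held Fam84a at 371 to 1304 in parental and at 15.7 to 513 in resistant cells (median 31.9), so it was low in most resistant lines.

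Genes that act with MYC were tested as a list of 31 wider network members, co-activators, co-repressors and regulators of MYC protein turnover, of which 30 were measured. Of these, 7 passed the test in resistant against parental cells (23.3%, against 15.6% of all genes), 2 up and 5 down, with a median log2 fold change of -0.13 against -0.00 for all genes. Ruvbl1 and Ruvbl2, paired ATPases of the chromatin complexes that MYC recruits, fell by 0.96 and 0.87 on the log2 scale (adjusted p = 0.00209 and 0.00567), lower in 6 of 6 lines. Usp28, a deubiquitinase that protects MYC from FBXW7, fell by 0.72 (adjusted p = 0.0421). Ppp2r5a, the phosphatase subunit that primes MYC for degradation, rose by 0.84 (adjusted p = 0.0189), higher in 6 of 6 lines. Zbtb17, which encodes the MYC partner MIZ-1 and is named beside the rule because it was the other gene that rose, changed by 0.67 (adjusted p = 0.0188). The count ranged from 2 to 7 when 1 line was left out, lowest without #6, with 3 without #4 and 4 without #7 (all genes 7.77%, 9.11% and 15.6%), and was 11 with the block (26.0%). In P12 against resistant cells Ncor1, a co-repressor subunit, rose by 0.41 (adjusted p = 0.0249) and was the only one to pass, and it was lost when any of lines #4, #6, #9 or #10 was left out. In P12 against parental cells 0 passed by limma, with 8 at an unadjusted p below 0.05 (15.3% of all genes), 4 past the adjusted threshold with the block (5.32%) and 2 without line #9 (2.56%).

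Of 33 genes that MYC is known to induce, 5 fell in resistant cells and 0 rose (15.2%, about the share of all genes). Their median log2 fold change was -0.47 and 26 of 33 were negative, while the median of all genes was -0.00. Ldha, which makes lactate from pyruvate, fell by 1.66 on the log2 scale (SE 0.27, adjusted p = 0.000513), from 20828 to 34870 in parental to 4594 to 16189 in resistant cells, lower in 6 of 6 lines and without overlap. Hspd1, a mitochondrial chaperonin, fell by 0.93 (adjusted p = 0.0148), Dkc1, of the pseudouridine machinery, by 0.88 (adjusted p = 0.0191), and Fbl, the nucleolar methyltransferase, by 0.73 (adjusted p = 0.0138). Polr1b, a subunit of RNA polymerase I and the fifth to pass, fell by 0.62 (adjusted p = 0.0203). The count depended on the lines, with 16 without #7 (15.6% of all genes passed), 1 without #4 (9.11%), 2 without #3 (8.69%), and 3 without #6 (7.77%) or #10 (9.46%). It was 12 with the block (26.0%). Of 12 genes of a cycling-cell list, 10 were negative (median -0.41), and only Rrm2 passed (8.33%, against 15.6% of all genes). The sum of these 12 genes went from 71047 in parental to 135706 in resistant cells of line #7, and was lower in resistant cells in every other line. The part of cycling in the induced genes was not tested.

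Ldha rose again in P12 against resistant cells by 0.99 (SE 0.27, adjusted p = 0.0324) and was the only one of the 33 to pass, and it was lost when any of lines #3, #4, #6, #9 or #10 was left out. Against parental cells, P12 cells had 31 of the 33 induced genes negative with a median of -0.52 (all genes 0.03), 0 past limma's threshold, 15 at an unadjusted p below 0.05 (15.3% of all genes) and 4 past the adjusted threshold with the block (5.32% of all genes). All 12 cycling genes were negative too (median -0.42), and Rrm2 passed (8.33%, against 0.658% of all genes). Without line #9, 3 of the induced genes passed, and without line #7, 1, where 2.56% and 0.547% of all genes passed.

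Of 8 genes that MYC is known to repress, 2 passed, and both fell in resistant cells (25% of the list, against 15.6% of all genes). Ndrg2, of the stress-responsive NDRG family, went from 498 to 1353 in parental to 4.79 to 201 in resistant cells (log2 fold change -4.44, SE 0.77, adjusted p = 0.000864) and back to 300 to 1730 in P12 cells (4.15, SE 0.77, adjusted p = 0.00292). Cdkn2b, which encodes the CDK inhibitor p15, was lower by 1.48 in resistant cells (5 of 6 lines, adjusted p = 0.0212) and rose by 1.57 in P12 cells (adjusted p = 0.0271). It lost both calls when any of lines #6, #7 or #10 was left out, and the second one also without #4. The median of the 8 was 0.57, with 5 positive, so the list and the 2 genes that passed in this fit differed in sign. With the block 3 of the 8 passed in resistant against parental cells, 2 down and 1 up (37.5%, against 26.0% of all genes). In P12 against parental cells 0 passed by limma and 1 had an unadjusted p below 0.05 (15.3% of all genes). In P5 against resistant cells Ndrg2 rose by 3.96 (adjusted p = 0.0306, and 0.0517 with the block). No gene of the partner or induced lists passed in the P5 comparisons by limma, with 7 and 3 at an unadjusted p below 0.05 against resistant and 3 and 3 against parental cells (15.4% and 10.4% of all genes).

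**Figure D4:**
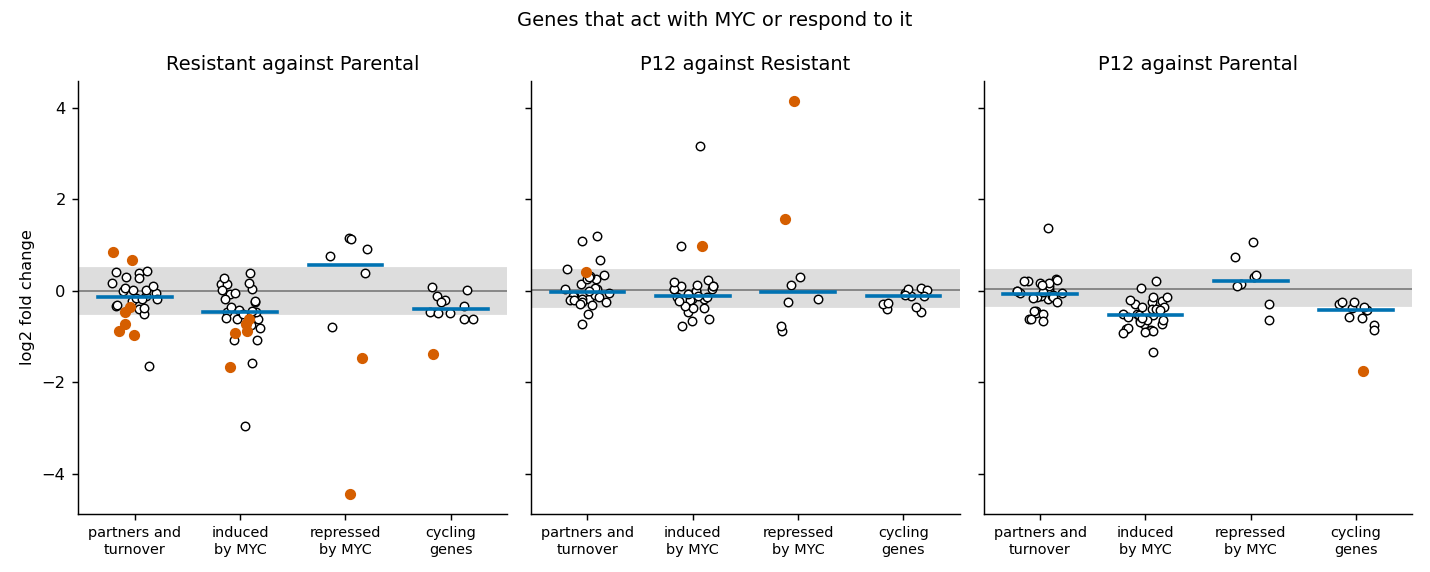
Log2 fold changes of single genes in 4 lists (30 partners and turnover genes, 33 genes induced by MYC, 8 repressed by MYC, 12 cycling genes). Filled points have an adjusted p below 0.05, blue bars are list medians, and the grey line and band are the median and the middle quartiles of all 19300 genes. The median of the induced genes was -0.47 in resistant and -0.52 in P12 against parental cells, and that of the cycling genes -0.41 and -0.42.

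Over all 21 samples, the genes with the pattern most like Myc by Pearson correlation of log2 values were Ftsj1 (0.947), Rnf217 (0.911), E2f6 (0.885), Faxc (0.870) and Hddc2 (0.861). For Mxd4 they were Fam214a (0.925), Calcoco1 (0.884), Heg1 (0.873), Crebrf (0.871) and Fam114a1 (0.864). Among the members, Mxd1 and Mxd3 ran against each other (-0.857), Mxd4 and Mnt ran together (0.666, and 0.841 after the mean of each line was removed), and Myc and Mxd4 gave -0.443 (-0.550). These are descriptions over 21 samples that share 6 lines, and the samples are not independent.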

How the data were processed

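RNA-seq libraries (TruSeq Stranded mRNA) came from 21 samples of 6 murine PDAC lines. Reads were demultiplexed with CASAVA 2.17 or bcl2fastq 2.19, trimmed with Skewer and quantified with salmon 0.12 against mm10. They were summed to genes and normalized with DESeq2 1.18, per the labels and methods. The paper names a HiSeq or a NovaSeq system for sequencing, and a difference between instruments was not tested. The deposited values are a signal, gene-level counts divided by size factors. Whole reads could not be recovered (72.3 to 81.7% of low values lay within 0.1 of a multiple of 1 read), so no count model was run. Depth is an estimate from the same spacing and covers counting error only.

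Groups came from the sample names. Values were tested as log2(value + 1), which understates changes of low genes, with limma 3.58.1 (R 4.3.3; trend, no block) over all 21 samples for genes with at least 10 in at least 3 samples, with Benjamini-Hochberg adjustment over 19300 genes. The unit did not allow the count test of the study, and its thresholds are given beside. Same-numbered samples come from the same cell line, and their deviations correlated (mean r 0.241 for resistant with parental, 0.457 for P12 with resistant, 0.316 for P12 with parental, against -0.0462, -0.0903 and -0.0645 between lines), so the cell line as a replicate block was fitted as an alternative and is printed where it changes a call. Whether lines were cultured in parallel is not given in the sources used here. The fit was tested on simulated data drawn independently for each sample, so without the likeness of samples from 1 line. Of 100 genes changed by 2 on the log2 scale in resistant cells it recovered 62, and of 100 changed by 4 it recovered 80. Among the unchanged genes 4 passed.

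Named genes were all members, up to 4 genes per list with the largest change past the threshold, Txnip, Arrdc4, and the 5 genes most like Myc and most like the member with the smallest p. Exceptions are marked. Members and lists were chosen, from general knowledge, with earlier results of these data known. Figures used matplotlib 3.10.9. A further allele of the mice and a marker gene are not reported here.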

Additional observations from a re-analysis of the deposited data

Results flagged for a closer look

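Of 30 groups of 6 samples (10 members in 3 states), 3 held a sample far from the others by Dixon's test, which chance alone flags in about 1 in 20 groups. Myc in the parental cells of line #9 was at 15120 normalized counts, above the 6699 to 8742 of the other lines. Mycn in the P12 cells of line #9 was at 2.37, at or under 3 reads, below the 126 to 507 of the others. Mlx in the parental cells of line #7 was at 803, below the 1146 to 1317 of the others.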

How the results depend on the processing

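With 6 lines per state and a wide spread between lines, the intervals of the members leave room for changes that did not pass. Of 845 recomputed member changes, 800 kept direction and call, 37 changed direction, 5 lost and 3 gained a call. Some alternatives (no filter, no trend, robust variances, the compared states alone without a block) leave the log2 fold change as it was, so direction could not change there. Only Mxd4 in resistant against parental cells had a call to lose. The 800 are thus no measure of how firm the results are. Upper-quartile rescaling moved the median of all genes in P12 against resistant cells from 0.02 to 0.11 and in P5 against resistant cells from 0.03 to 0.13. Over all genes, calls in P12 against resistant cells were 1201, 2454 with the block and 547 with the compared states alone, and in P12 against parental cells 127, 1026 with the block and 36 among genes with a mean of at least 100. The causes of the shifts below were not tested.

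With the cell line as a replicate block, the members past the threshold numbered 2 (Myc, Mxd4) in resistant against parental cells and 1 (Mycl) in P12 against parental cells. The partners then numbered 11, 3 and 4, the induced genes 12, 2 and 4, and the repressed genes 3, 2 and 1. These are in the order resistant against parental, P12 against resistant and P12 against parental cells, and the last repressed gene is Gadd45a. Of all genes, 26.0%, 12.7% and 5.32% passed in the same order. With only the compared states and the block, 0 members and 3 partners passed in resistant against parental cells (14.3% of all genes). In P12 against resistant cells 0 partners and 2 induced genes passed in that fit (8.28% of all genes). With only the compared states and no block, 8 induced genes passed in resistant against parental cells (14.0% of all genes). In P12 against resistant cells 0 partners, 0 induced genes and 1 repressed gene passed in that fit (2.83% of all genes). At the thresholds of the study, 0 members, 0 partners, 1 induced and 1 repressed gene passed in resistant against parental cells (5.3% of all genes). In P12 against resistant cells 0, 0 and 1 of the lists passed there (2.13% of all genes). Without the filter or the trend, 0 partners passed in P12 against resistant cells (2.91% and 5.72% of all genes).

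When each line was left out in turn, members past the threshold numbered 0 to 1 in resistant against parental and 0 to 1 in P12 against parental cells. In the same order, partners numbered 2 to 7 and 0 to 2, and induced genes 1 to 16 and 0 to 3. In P12 against resistant cells, partners numbered 0 to 1 and induced genes 0 to 1. Repressed genes numbered 1 to 2 in resistant against parental and 1 to 2 in P12 against resistant cells. Of all genes, 7.77 to 17.4% passed in resistant against parental cells in these fits. The share was 3.23 to 8.03% in P12 against resistant and 0.0527 to 2.56% in P12 against parental cells.

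Changes of direction, none past the threshold, were as follows on the log2 scale. Upper-quartile rescaling gave Max 0.023 and Mnt 0.027 in P12 against resistant and Mxi1 0.055 in P5 against resistant cells. A pseudocount of 8 gave Mycn -0.064 in P5 against resistant cells. The block gave Max -0.039 there, and with only the compared states it gave Max -0.23 and Mxi1 0.057 there and Mxi1 -0.0039 in P5 against parental cells. Without the P5 samples noted as 12 passages, an alternative chosen after seeing the data, P5 is line #3 alone set against 6 lines, so line and withdrawal cannot be told apart. There P5 against resistant cells gave Myc -1.39, Max -0.33, Mxi1 0.20 and Mnt -0.14, and P5 against parental cells gave Mycn 1.46 and Mxd1 -0.12. Leaving out lines gave ranges of -0.24 to 0.094 for Max, -0.55 to 0.20 for Mxd4, -0.063 to 0.22 for Mxi1 and -0.24 to 0.036 for Mnt in P12 against resistant cells. In P12 against parental cells they were -0.039 to 0.23 for Mxd1, -0.37 to 0.11 for Mxd3 and -0.24 to 0.026 for Mlx. In P5 against resistant cells they were -1.22 to 1.15 for Mycn, -0.13 to 0.34 for Max, -0.20 to 0.14 for Mxi1 and -0.37 to 0.24 for Mnt. In P5 against parental cells they were -1.35 to 0.057 for Myc, -0.68 to 0.11 for Max and -0.43 to 0.10 for Mlx.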
